A study of Homo sapiens with 6 samples.

Results

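The cytosolic ribosomal proteins are the protein constituents of the small and large subunits of the ribosome outside mitochondria. They were chosen by name as every probe annotated with 1 symbol made of RPL or RPS, digits, and then nothing or A, L or X, together with the stalk proteins RPLP0, RPLP1 and RPLP2 and with RPSA. Names starting RPS6K, which are kinases, and pseudogenes were left out. The rule gave 120 of the 48803 probes on the array, for 72 genes of the 18852 that a probe with 1 symbol named, and 113 of these probes, for 70 genes, were bright enough to be tested. The genes fell into 41 of the large subunit, 25 of the small subunit, 2 of the stalk and 4 paralogs (RPL3L, RPL10L, RPL39L and RPS27L). RPLP0, RPSA and RPS27A, which the ribosome also holds, were not analysed here.

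The cells were IGROV-1, an established human ovarian carcinoma line, and total RNA of 6 samples was labelled and read on single-colour Illumina bead arrays. The control group was 3 samples labelled saline. The treated group was 3 samples given CpG-ODN, the phosphorothioate DNA oligonucleotide ODN1826, at 10 µM for 24 h. How long the saline cells were kept before harvest is not stated in the sources used here. All 6 samples were of this 1 line, and the labels name no change to its genome. The treating oligonucleotide is 20 bases long and is shown because it is the agent compared, with its 2 unmethylated CG pairs in capitals.
CpG-ODN: tccatgaCGttcctgaCGtt

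The small subunit of the ribosome decodes the mRNA, and the large subunit joins amino acids and holds the exit tunnel of the new protein. The stalk of the large subunit, built of acidic proteins, recruits the elongation factors. Ribosomal protein mRNAs belong to the class called TOP mRNAs, which start with a C followed by a tract of pyrimidines and whose translation is switched as a group with growth signals through mTOR and LARP1, so that the mRNA level measured on an array is only 1 layer of their control.

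The start sites of the members that carry the results below are shown first, to let the tract be seen. Each sequence holds 15 bases before and 15 bases from the start annotated by RefSeq on GRCh38.p14, 5′ to 3′ on the strand of the gene, and capitals mark a run that begins with a C at the annotated start and goes on with C or T, where the run is at least 5 bases long. Genes whose start is shown in lower case throughout lack such a run. The starts are those of the annotation and were not measured in these cells.
RPL36 (chr19:5690280-5690309, plus strand): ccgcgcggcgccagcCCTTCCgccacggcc
RPL14 (chr3:40457324-40457353, plus strand): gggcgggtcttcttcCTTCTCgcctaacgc
RPL38 (chr17:74203663-74203692, plus strand): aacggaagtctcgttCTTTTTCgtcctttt
RPL39 (chrX:119791616-119791645, minus strand): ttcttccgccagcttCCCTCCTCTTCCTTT
RPL41 (chr12:56116618-56116647, plus strand): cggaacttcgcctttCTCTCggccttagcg
RPLP2 (chr11:809952-809981, plus strand): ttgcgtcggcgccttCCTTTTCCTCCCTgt
RPS24 (chr10:78033848-78033877, plus strand): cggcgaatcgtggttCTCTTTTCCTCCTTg
RPS27 (chr1:153990747-153990776, plus strand): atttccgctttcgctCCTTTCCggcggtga
RPS6 (chr9:19380222-19380251, minus strand): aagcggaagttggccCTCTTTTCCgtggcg
RPS29 (chr14:49598696-49598725, minus strand): ccccgagcgcgcagctggcagcggtggttg
RPS27L (chr15:63157463-63157492, minus strand): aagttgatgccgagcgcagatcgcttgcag
RPL10L (chr14:46651767-46651796, minus strand): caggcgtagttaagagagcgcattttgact

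Of the 72 genes, 60 had a start sequence in the RefSeq table, and 43 of these (71.7%) had the run at an annotated start, against 5.14% of all 27305 genes with a sequence. A C at the annotated start was found in 46 of the 60 genes (76.7%), against 18.0% of all genes. A looser feature, at least 5 pyrimidines in a row with any first base, lay anywhere in the window of 30 bases in 57 genes (95%), against 54.7% of all genes. The run length shown for the selected genes ranged from 5 bases in RPL41 to 19 bases or more in RPL39, where it reached the end of the window before the count stopped. The paralogs RPS27L and RPL10L and the small subunit gene RPS29 had no run at the annotated start.

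Detected probes per array, at a detection p-value under 0.05, numbered 17142 to 18790. The mean deposited intensity per array ran from 592.0 on CpG-ODN array 2 to 712.7 on CpG-ODN array 1, and the 75th percentile was 186.7 on CpG-ODN array 2 against 207.6 to 221.3 on the other 5 arrays. Of 9 epithelial and ovarian carcinoma markers, 8 had a probe and were detected on at least 1 array, and EPCAM, KRT8, KRT18, KRT19, CDH1 and PAX8 were detected on all arrays. Of 4 leukocyte markers with a probe, PTPRC and CD3E were detected on no array, while CD14 and CD68 were detected on all 6. Of the endothelial markers PECAM1 and VWF were detected on all 6 arrays, KDR on 2 saline arrays and CDH5 on none. Of the fibroblast markers COL1A2 and LUM were detected on no array, COL1A1 and PDGFRB on 1 array each, and DCN on 3. In RNA of a whole culture, fewer cells of a kind and less RNA per cell cannot be told apart. The labels do not state separate cultures for the samples of a group, so a p-value here measures the spread among these 6 samples, and that spread may be technical.

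Ribosomal protein mRNAs gave some of the brightest signals on the arrays. The median deposited intensity of the 113 tested probes was 15412, 15704 and 15871 on the saline arrays and 18304, 18014 and 14526 on CpG-ODN arrays 1, 2 and 3. The median over all 17950 tested probes of the arrays was 389.6, 384.5 and 384.1 on the saline arrays and 410.1, 304.7 and 356.4 on the CpG-ODN arrays. The ribosomal protein probes together held 6.51%, 6.76% and 6.78% of the summed intensity on the saline arrays and 6.75%, 7.96% and 6.74% on the CpG-ODN arrays. CpG-ODN array 2 thus had the highest share, and it had the lowest median over all tested probes. Of the 100 tested probes with the highest mean, 25 were ribosomal protein probes, and of the top 500, 70 were. A signal depends on the probe as well as on its mRNA, so these ranks order probes and not transcripts.

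All 113 tested probes were detected on all 6 arrays, so none of them entered the test through 1 group alone. The other 7 probes were detected on no array, with deposited intensities between 91.3 and 137.8. They were both probes of RPL10, the single probe of RPL3L, and 1 probe each of RPL3, RPL36A, RPL37 and RPS27L, 4 genes that had other probes with signal. RPL10 is a large subunit protein needed for the last steps of subunit joining, and RPL3L is a paralog of RPL3 known from striated muscle. Ribosomal protein genes have many processed pseudogenes and near-identical copies, the probe sequences were not used here, and whether a probe also binds such copies was not tested.

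Normalized levels, on the log2 scale after background correction and quantile normalization, had a median of 13.99 over the 113 probes, against 8.11 over all tested probes. They ran from a mean of 6.50 for an RPL32 probe to 15.78 for an RPL41 probe, and 25% of probes lay below 11.95 and 25% above 14.87. The brightest 5 probes were those of RPL41, RPS16, RPS25, RPS10 and RPLP2. The dimmest 5 tested probes were 2 of RPL32 and 1 each of RPL37, RPL10L and RPL37A. RPL32, RPL37A and RPL41 also had probes of very different brightness: RPL32 had a probe with a mean of 15.40 beside 3 below 8, which shows that the order of probes is not an order of genes.

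Replicate arrays agreed more closely for these probes than for the arrays as a whole. The median standard deviation (SD) of a ribosomal protein probe over the 3 saline arrays was 0.0857 log2 units, against 0.162 over all tested probes. Over the 3 CpG-ODN arrays it was 0.176, against 0.279. The difference from other probes went with brightness: among probes in the same range of levels, the 57 ribosomal protein probes had median SDs of 0.0857 and 0.188 and the 1213 other probes had 0.0949 and 0.187. The SD was larger over CpG-ODN than over saline arrays for 81 of the 113 probes (71.7%), a share near the 74.2% of all tested probes. Between the saline arrays, the SD of the differences over the 113 probes was 0.159 to 0.164 for any pair. Between CpG-ODN arrays it was 0.344 for arrays 1 and 2, 0.314 for arrays 1 and 3, and 0.185 for arrays 2 and 3.

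The steadiest probes under saline were those of RPS25, RPL11, RPL39, RPL12 and RPL13A. RPL39, a small protein at the exit tunnel, read 14.59, 14.59 and 14.56 on saline arrays 1, 2 and 3 and 14.68, 14.70 and 14.66 on CpG-ODN arrays 1, 2 and 3. RPL13A, often used as a reference gene in PCR, read 12.25, 12.21 and 12.24 on the saline arrays and 12.06, 12.57 and 12.31 on the CpG-ODN arrays. Its 3 saline values lay within 0.04 of each other, while its CpG-ODN values lay on both sides of them. The least steady under saline were probes of RPL32, RPLP1, RPL31, RPL39L and RPS24. The RPLP1 probe among them read 14.78, 14.83 and 14.40 under saline and 15.19, 14.62 and 14.32 with CpG-ODN, and its values overlapped between the groups.

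The comparison of CpG-ODN with saline asks whether the mRNAs of the translation machinery changed in cells given the oligonucleotide. No ribosomal protein probe passed the test. With limma's moderated test over all 17950 tested probes, 0 of 113 were called at an adjusted p under 0.05, and the share called over all tested probes was 0% as well (0 of 17950, smallest adjusted p 1.00 in limma). At an unadjusted p under 0.05 in limma, 1 ribosomal protein probe was higher with CpG-ODN and 0 were lower, against 3.58% of all tested probes in either direction, 1.7% higher and 1.88% lower. With arrays weighted by their agreement, 5 member probes were higher and 2 lower at that threshold, against 7.75% and 8.42% of all tested probes. The 95% intervals hold for the main scaling and leave out the choice of scaling. That choice moved the members' median difference from 0.08 to as much as 0.23. Under the main scaling, the interval lay inside 1.5-fold in either direction for 86 of 113 probes (76.1%) and inside 2-fold for all 113. Those shares were 43.0% and 93.6% over all tested probes, and 75% lay inside 1.5-fold among other probes in the same range of brightness. Estimated changes beyond 1.2-fold occurred in 9 of the 113 probes (7.96%), against 21.9% of all tested probes. In the shared range of brightness they occurred in 2 of 57 members (3.51%) and in 91 of 1213 other probes (7.50%).

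The estimates leaned to higher levels with CpG-ODN. Of the 113 probes 83 (73.5%) had a higher mean with CpG-ODN and 30 a lower mean, while 48.1% of all tested probes had a higher mean. The median difference, CpG-ODN minus saline, was 0.08 log2 units, against -0.01 over all tested probes, and single probes ran from -0.23 to 0.44. The middle 50% of the probes lay between -0.01 and 0.16. The median standard error (SE) of a difference was 0.171, which is larger than the median difference itself. All 3 CpG-ODN values lay above all 3 saline values for 9 probes, 7.96% against 4.32% of all tested probes, and below them for 0 probes, against 5.03%. In the shared range of brightness they lay above for 3 of 57 members and 57 of 1213 other probes. They lay below there for 0 members and 91 other probes. The 9 probes were those of RPL30, RPL39 and RPS13, both of RPL38, and 1 each of RPL14, RPL36, RPL37A and RPS27. The size of this lean depended on 1 array and on the scaling of the arrays.

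**Figure D1:**
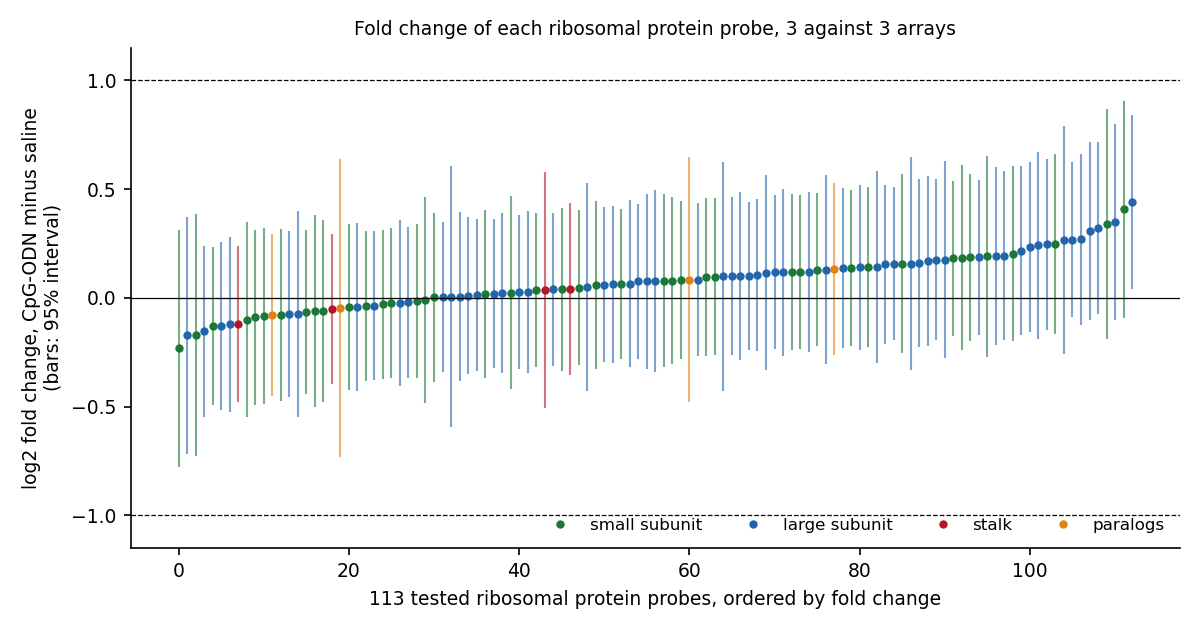
Differences in normalized log2 level (CpG-ODN minus saline, 3 against 3 arrays) of the 113 tested ribosomal protein probes, ordered by size, with 95% intervals as bars, colours for the small subunit, large subunit, stalk and paralogs, and dashed lines at a 2-fold change. The points run from -0.23 to 0.44, every interval stays inside the dashed lines, and 1 interval, that of an RPL36 probe, leaves out 0.

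Among the proteins of the small subunit, 27 of 43 tested probes had a higher mean with CpG-ODN and 16 a lower mean, with a median difference of 0.05. None passed the test. RPS29, a zinc-binding protein of the subunit's head, had the smallest unadjusted p of the class through its probe ILMN_2298818, which read 9.73, 9.52 and 9.71 on the saline arrays and 9.69, 10.50 and 9.99 on CpG-ODN arrays 1, 2 and 3. CpG-ODN array 1 lay within the saline range and array 2 was highest. The difference was 0.41 ± 0.22 (SE, n = 3 and 3; limma, unadjusted p = 0.0978, adjusted p = 1.00). The other 3 RPS29 probes gave differences of -0.01, -0.02 and 0.16.

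RPS26, a protein at the mRNA exit whose gene is mutated in some cases of Diamond-Blackfan anaemia, read 12.98, 13.05 and 13.01 under saline and 13.88, 13.22 and 12.95 with CpG-ODN at its probe ILMN_2209027. The 3 treated values spanned 0.92 log2 units, with array 1 highest and array 3 just below every saline value. The difference of 0.34 ± 0.24 (SE) was thus within the spread of the treated arrays. Its other probe read 8.83, 8.75 and 8.86 under saline and 8.82, 9.35 and 9.01 with CpG-ODN, and there array 2 was highest, with a difference of 0.25 ± 0.18.

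RPS27 and RPS13 were the small subunit genes with a probe whose groups did not overlap. RPS27, another zinc-binding protein, read 15.55, 15.37 and 15.41 under saline and 15.57, 15.72 and 15.60 with CpG-ODN at its brightest probe. The lowest treated value was 0.02 above the highest saline value, and the difference was 0.18 ± 0.16. Its other 2 probes gave 0.14 and 0.08, both with overlapping groups. RPS13 read 13.90, 13.94 and 13.94 under saline and 13.96, 14.26 and 13.99 with CpG-ODN, a difference of 0.14 ± 0.16 that came mostly from array 2.

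The lowest estimates of the class were those of RPS24 and RPS9. RPS24, which takes part in processing of the small subunit's rRNA and is another Diamond-Blackfan anaemia gene, read 12.72, 12.95 and 12.95 under saline and 12.14, 13.11 and 12.67 with CpG-ODN at ILMN_2399893. The treated arrays lay on both sides of the saline values, array 1 lowest and array 2 highest, and the difference was -0.23 ± 0.24 (SE). The RPS9 probe ILMN_1749447 had the same order: 13.50, 13.60 and 13.82 under saline and 12.93, 13.89 and 13.58 with CpG-ODN, a difference of -0.17 ± 0.25. RPS24 and RPS9 were also the 2 genes with several probes that all had a lower mean with CpG-ODN, at -0.06 and -0.01 for their other probes.

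RPS6, the protein that the S6 kinases phosphorylate, had probes that differed in sign. ILMN_1808939 read 14.43, 14.56 and 14.58 under saline and 14.39, 14.52 and 14.26 with CpG-ODN, a difference of -0.13 ± 0.16. ILMN_1656791 read 15.31, 15.27 and 15.51 under saline and 15.49, 15.50 and 15.46 with CpG-ODN, a difference of 0.12 ± 0.16. The groups overlapped at both probes. RPS3, which also has a role in DNA repair, and RPS19, the gene most often mutated in Diamond-Blackfan anaemia, had differences of 0.00 ± 0.17 and 0.05 ± 0.16. The 2 probes of RPS4X gave 0.04 and -0.06.

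Among the proteins of the large subunit, 52 of 62 tested probes had a higher mean with CpG-ODN and 10 a lower mean, with a median difference of 0.10. None passed the test. RPL36 gave the 1 probe of the whole set with an unadjusted p under 0.05. That probe, ILMN_1771462, read 8.25, 8.16 and 8.15 on the saline arrays and 8.39, 8.87 and 8.62 on CpG-ODN arrays 1, 2 and 3. All treated values lay above all saline values, by at least 0.14 log2 units. The difference was 0.44 ± 0.18 (SE), with a 95% interval of 0.04 to 0.84 (limma, unadjusted p = 0.0342, adjusted p = 1.00). The other RPL36 probe read 12.97, 12.90 and 13.28 under saline and 13.36, 13.36 and 13.17 with CpG-ODN, and its groups overlapped at a difference of 0.25 ± 0.17.

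RPL38 was the only gene with several tested probes whose groups did not overlap at any of them. This large subunit protein is known from mouse for its part in translation of Hox mRNAs. ILMN_2343775 read 15.12, 14.92 and 14.90 under saline and 15.30, 15.23 and 15.22 with CpG-ODN, a difference of 0.27 ± 0.16. ILMN_1765043 read 15.31, 15.34 and 15.07 under saline and 15.45, 15.39 and 15.35 with CpG-ODN, a difference of 0.15 ± 0.16. Here the treated arrays were close together, and array 2 was not the highest at either probe. In limma the unadjusted p-values were 0.125 and 0.366.

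RPL14 read 11.22, 11.26 and 11.12 under saline and 11.61, 11.69 and 11.27 with CpG-ODN at ILMN_1726460. Arrays 1 and 2 lay well above the saline values and array 3 was 0.0044 above the highest, so that the difference of 0.32 ± 0.18 (limma, unadjusted p = 0.0994) rested on arrays 1 and 2. RPL10A, a protein of the L1 stalk, read 13.38, 13.35 and 13.45 under saline and 13.95, 13.73 and 13.42 with CpG-ODN at ILMN_1808041, a difference of 0.31 ± 0.18. Its array 3 fell within the saline range. RPL41, the smallest ribosomal protein, read 8.45, 8.74 and 8.52 under saline and 8.83, 9.27 and 8.66 with CpG-ODN at its dimmer probe, a difference of 0.35 ± 0.20. At its brighter probe the difference was 0.01 ± 0.16.

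The other large subunit probes with separate groups differed by less. RPL30 read 13.76, 13.74 and 13.79 under saline and 13.82, 14.05 and 13.98 with CpG-ODN, a difference of 0.19 ± 0.16. RPL39, whose values are given above, had a difference of 0.10 ± 0.15. Its SD over the saline arrays was 0.0176, yet the SE, which limma moderates towards the spread of all probes, was larger than the difference. One RPL37A probe read 7.51, 7.55 and 7.55 under saline and 7.74, 7.76 and 7.57 with CpG-ODN, a difference of 0.16 ± 0.16.

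RPL5 and RPL11, which form a particle with the 5S rRNA and can bind MDM2 when ribosome assembly fails, showed little movement. RPL5 read 13.99, 14.05 and 13.93 under saline and 13.96, 13.96 and 14.05 with CpG-ODN, a difference of 0.00 ± 0.15. The RPL11 probes gave 0.04 ± 0.16 and 0.12 ± 0.16. RPL35A, another Diamond-Blackfan anaemia gene, gave 0.14 ± 0.17, and RPL13A gave 0.08 ± 0.18.

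The lowest estimates of the large subunit came with low values on CpG-ODN array 1. RPL8 read 10.28, 10.48 and 10.51 under saline and 9.69, 10.50 and 10.57 with CpG-ODN at ILMN_1811433, a difference of -0.17 ± 0.24. Its other probe gave 0.02 ± 0.15. RPL27 read 15.01, 15.14 and 15.09 under saline and 14.67, 15.01 and 15.09 with CpG-ODN, a difference of -0.15 ± 0.17. RPL4, a protein of the exit tunnel, read 13.62, 13.55 and 13.64 under saline and 13.24, 13.61 and 13.58 with CpG-ODN, a difference of -0.13 ± 0.17. In all 3 cases CpG-ODN array 1 lay below every saline value and array 3 within or near the saline range.

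The stalk proteins RPLP1 and RPLP2, which form dimers that contact the elongation factors, had 4 tested probes, 2 higher and 2 lower by mean, and a median difference of -0.01. RPLP2 read 15.65, 15.58 and 15.59 under saline and 15.35, 15.61 and 15.50 with CpG-ODN, with array 1 lowest and the groups overlapping. Its difference was -0.12 ± 0.16. The RPLP1 probes gave 0.04 ± 0.24, 0.04 ± 0.18 and -0.05 ± 0.15.

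**Figure D2:**
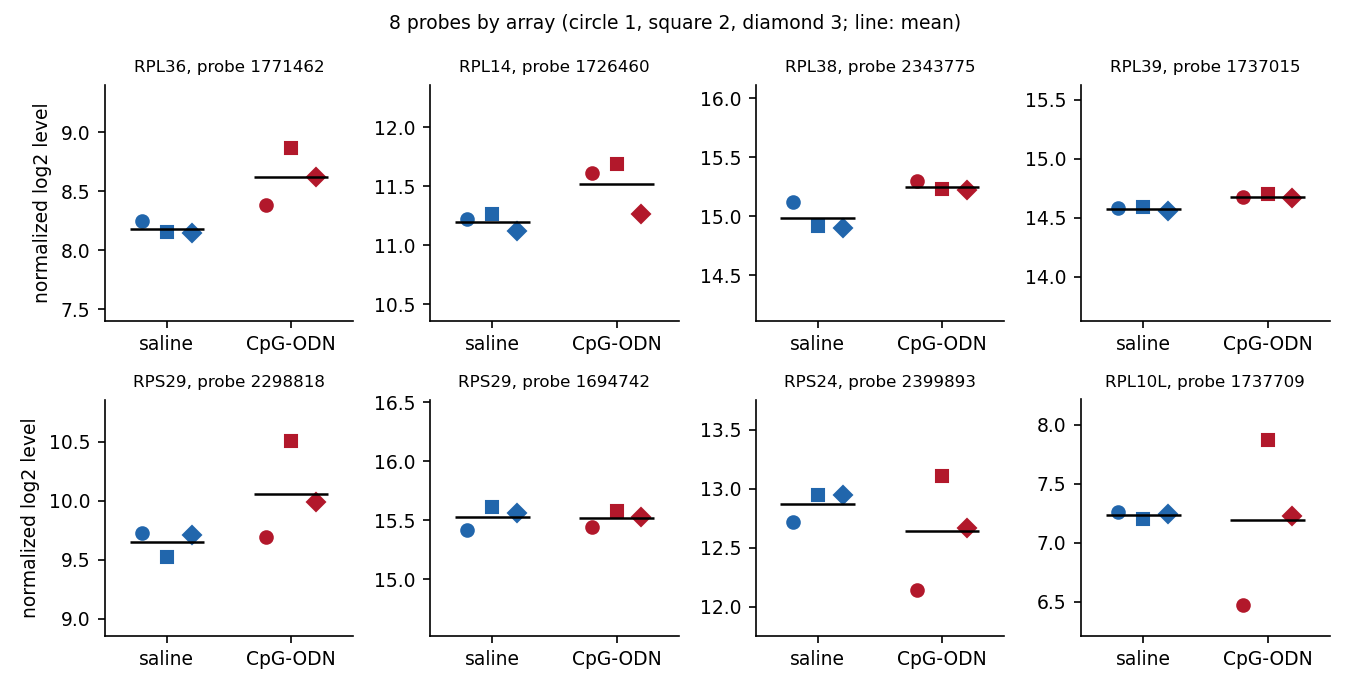
Normalized log2 levels of 8 ribosomal protein probes on the saline and CpG-ODN arrays (circle array 1, square array 2, diamond array 3, line the group mean; every panel spans 2 log2 units). The groups are apart for RPL36, RPL14, RPL38 and RPL39, with differences of 0.44, 0.32, 0.27 and 0.10, and overlap for both RPS29 probes, RPS24 and RPL10L, where CpG-ODN array 2 is the highest treated value.

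The paralogs had 4 tested probes with a median difference of 0.02. RPL10L, a retrogene copy of RPL10 known from the testis, read 7.26, 7.21 and 7.24 on the saline arrays and 6.48, 7.87 and 7.22 on CpG-ODN arrays 1, 2 and 3. Its saline values lay within 0.06 of each other while the treated values spanned 1.40 log2 units on both sides of them, and the difference was -0.05 ± 0.31. RPL10 itself was detected by neither of its probes, so the pair could not be compared. RPL39L, a copy of RPL39 known from testis and from some tumours, read 11.52, 11.47 and 11.54 under saline and 11.49, 11.91 and 11.53 with CpG-ODN at its steadier probe, a difference of 0.13 ± 0.17, and gave 0.08 ± 0.25 at the other. RPS27L, a copy of RPS27 and a known p53 target, read 14.14, 14.18 and 14.10 under saline and 14.08, 14.22 and 13.89 with CpG-ODN, a difference of -0.08 ± 0.16. RPL3 gave 0.06 ± 0.16 and -0.04 ± 0.15 at its detected probes.

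By array, the shift to higher levels was seen on CpG-ODN array 2. The median of the 113 probes minus their own saline means was -0.01 on CpG-ODN array 1, 0.20 on array 2 and 0.02 on array 3. The saline arrays gave -0.01, 0.01 and 0.01 by the same measure, and the medians over all tested probes on the CpG-ODN arrays were -0.02, 0.00 and 0.00. CpG-ODN array 2 held the highest of the 6 values for 66 probes (58.4%), against 26.8% of all tested probes, and the lowest for 2 probes (1.77%), against 26.8%. On array 1 the members spread both ways: 38 lay above all saline values and 36 below them, where 31.7% and 36.2% of all tested probes did so. On array 2, 79 lay above and 4 below, where the shares over all tested probes were 34.7% and 35%. On array 3, 36 lay above and 28 below, where those shares were 24.8% and 24.6%. Without CpG-ODN array 2 the median difference was 0.03 with 66 of 113 probes higher, and without CpG-ODN array 1 it was 0.11 with 90 higher. CpG-ODN array 2 also had the lowest mean intensity and the lowest 75th percentile of all 6 arrays; the part of array intensity in this shift was not tested.

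**Figure D3:**
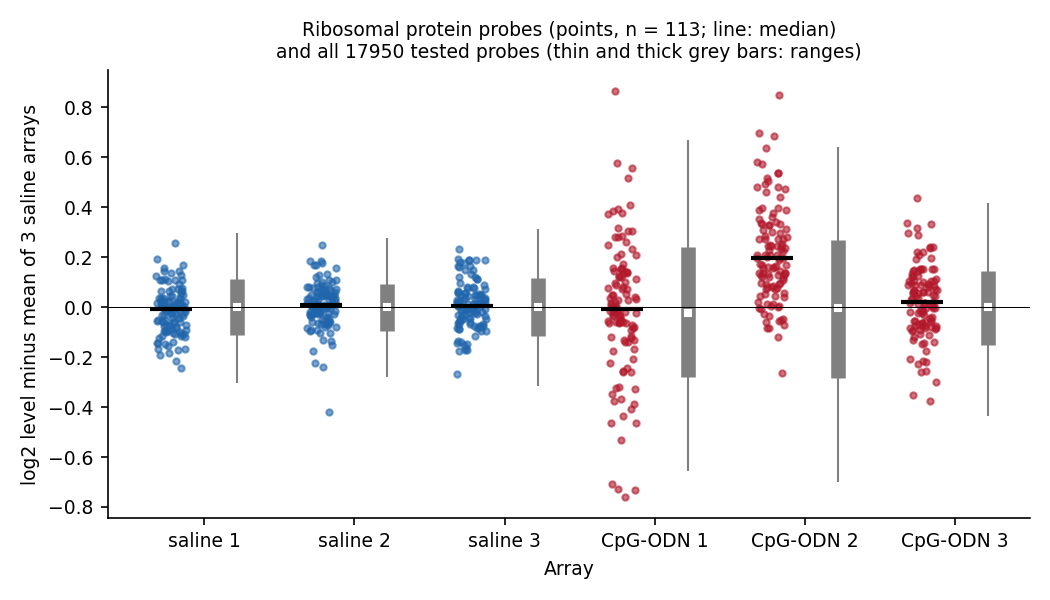
Normalized log2 level of each of the 113 ribosomal protein probes minus its mean over the 3 saline arrays, by array, with the median as a black line; grey bars give the 25 to 75% (thick) and 5 to 95% (thin) range of all 17950 tested probes. The members' median is 0.20 on CpG-ODN array 2 and between -0.01 and 0.02 on the other 5 arrays, and the points of CpG-ODN array 1 spread widest.

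Different probes of the same gene often gave different estimates. Of 31 genes with several tested probes, 12 had differences of opposite sign, 17 had all probes with a higher mean and 2 (RPS24 and RPS9) had all with a lower mean. The median gap between a gene's highest and lowest estimate was 0.113 log2 units, larger than the median difference of 0.08 over all members. That gap was smaller than the median SE of a single probe's difference, 0.171. Whether the gaps exceed the noise was not tested. The widest gap was that of RPS29, from -0.02 to 0.41. Other wide gaps were those of RPL41, from 0.01 to 0.35, and of RPS15A, from -0.10 to 0.19, while the RPL32 probes ran from 0.02 to 0.27. The gene's dimmest probe gave a higher estimate than its brightest in 20 of the 31 genes, RPS29, RPL41 and RPL36 among them, and a lower one in 11, RPS26, RPL8 and RPL13 among them.

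Differences went with brightness across the members as a whole. The 18 probes with a mean level under 11 had a median difference of 0.16, the 39 between 11 and 14 had 0.12 and the 56 above 14 had 0.04. On CpG-ODN array 2 alone, the medians relative to saline were 0.45, 0.28 and 0.12 in the same order. Across the 113 probes, which share the same 6 arrays and are not independent, level and difference had a Pearson's r of -0.32 and a Spearman's rho of -0.33. Across all tested probes r was 0.01. The highest member intensity was 51943 to 59256 per array, where the highest of any probe was 58592 to 62511. The part of an upper limit of the signal in the smaller differences of bright probes was not tested.

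**Figure D4:**
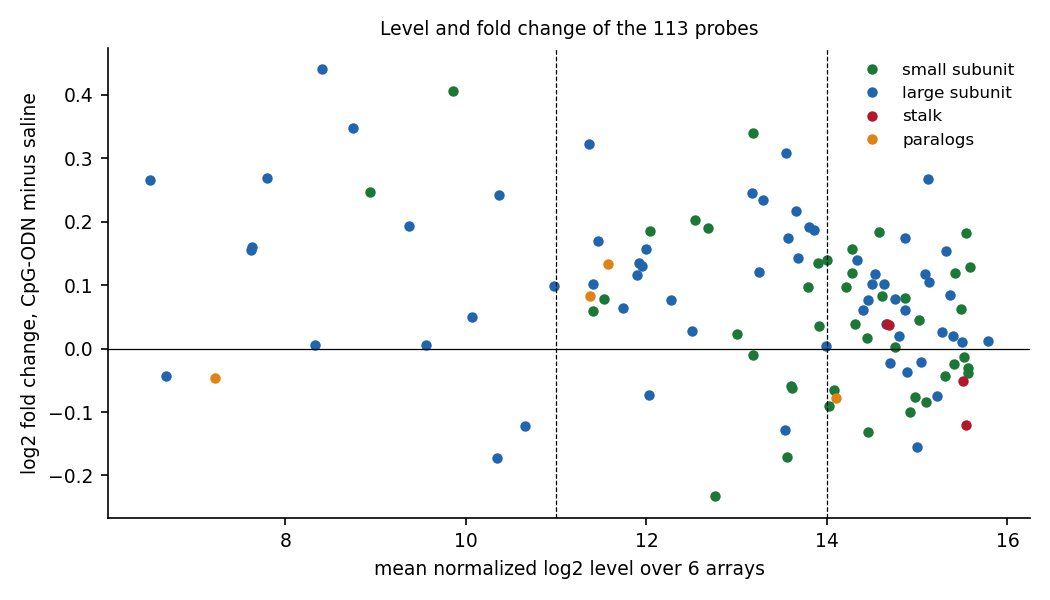
Mean normalized log2 level over 6 arrays (x axis) and difference CpG-ODN minus saline in log2 units (y axis) for the 113 tested ribosomal protein probes, coloured by class, with dashed lines at levels of 11 and 14. The points above 14 have a median of 0.04 and those under 11 a median of 0.16.

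Members with and without the run of pyrimidines at an annotated start had similar median differences. The split follows the exact start in the annotation. Of the 60 genes with a sequence, 57 held at least 5 pyrimidines in a row somewhere in the window of 30 bases. It therefore cannot tell TOP mRNAs from others, and no conclusion on the tract is drawn from it. The 62 tested probes of 42 genes with the run had a median difference of 0.08, with 48 higher, and the 36 tested probes of 17 genes without it had a median of 0.07, with 25 higher. Among the 6 genes with the smallest unadjusted p on the higher side, RPL36, RPL14, RPL41 and RPL38 carry the run at an annotated start. RPS29 and RPL10A do not carry it there. On the lower side RPS24, RPLP2 and RPS6, whose other probe was higher, carry it, RPL27 and RPL4 do not, and no start of RPL8 was used here.

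The size of the lean depended on how the arrays were scaled, and its sign was the same under the 6 scalings run. With background-corrected values brought to a common median instead of quantile normalized, the median difference was 0.18. A higher mean was found for 92.0% of the members, against 47.3% of all tested probes. The members' medians on CpG-ODN arrays 1, 2 and 3 were 0.32, 0.27 and 0.00, where those of all tested probes were 0.23, -0.20 and -0.07. With medians equalised over the tested probes only, an alternative chosen after the data were seen, the median difference was 0.23. Here 94.7% of the members were higher, against 55.8% of all tested probes, and the members' array medians were 0.04, 0.59 and 0.09. The deposited normalized values gave 0.08. With neither background correction nor normalization it was 0.06 with 69.0% higher, where the median of all tested probes was -0.09 with 26.7% higher. Relative to all tested probes on the same array, the members were highest on CpG-ODN array 2 under each of the 6 scalings. That difference of medians was 0.20 on array 2 under the main settings, 0.47 under both median scalings, 0.17 with the deposited values and with no background correction, and 0.35 with neither step. On array 1 it was 0.01 to 0.13 and on array 3 it was 0.02 to 0.07.

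**Figure D5:**
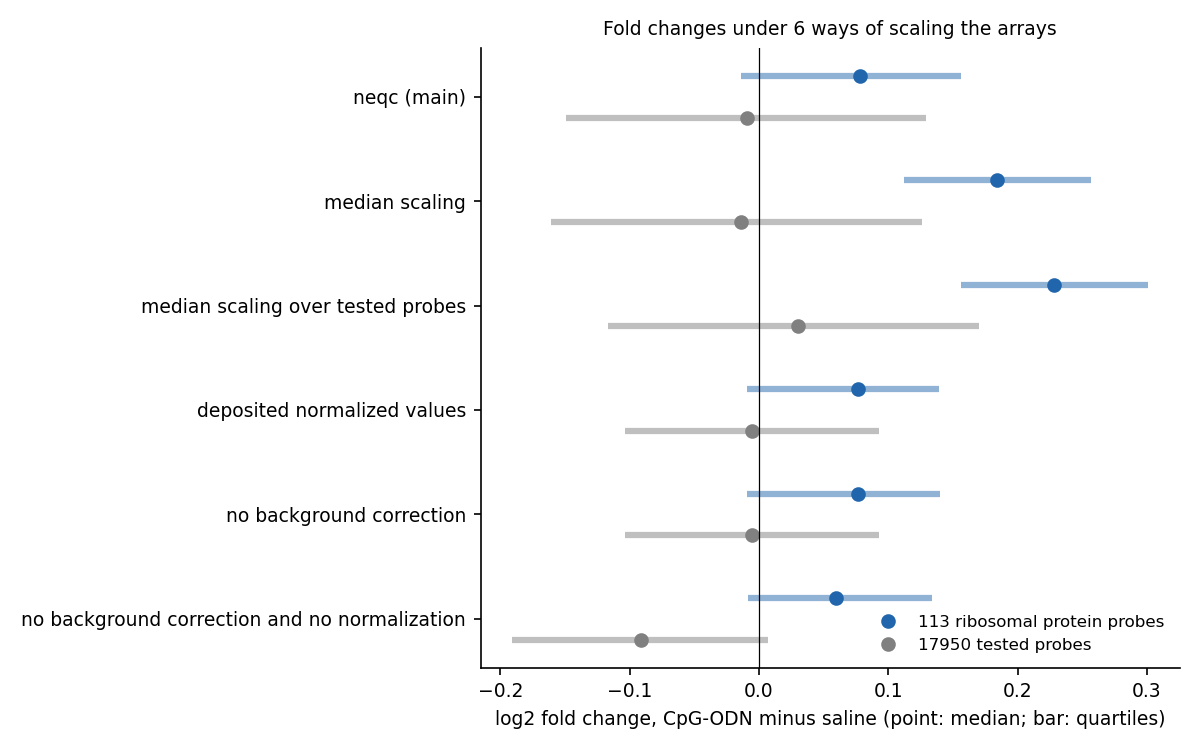
Log2 difference CpG-ODN minus saline of the 113 ribosomal protein probes (blue) and of all 17950 tested probes (grey) under 6 ways of scaling the arrays, with the median as a point and the 25 to 75% range as a bar. The members' median lies between 0.06 and 0.23 and that of all tested probes between -0.09 and 0.03.

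Other genes of translation were set beside the members, each by its probe with the highest mean among those tested. None of their probes was called by limma. Of 8 further ribosomal constituents or copies outside the naming rule, 5 were tested (4 higher and 1 lower by mean), and the median difference was 0.02. RPL22L1, a copy of RPL22, read 7.20, 7.24 and 7.14 under saline and 7.48, 7.51 and 7.43 with CpG-ODN, a difference of 0.28 ± 0.15. After normalization all treated arrays thus lay above all saline arrays. In the deposited intensities CpG-ODN array 2 read 232, below the lowest saline value of 241.5. RPL22 itself gave 0.03 ± 0.16. RPL26L1, a copy of RPL26, gave 0.29 ± 0.18 and, at its second probe, 0.43 ± 0.18, beside 0.22 ± 0.17 for RPL26. FAU, whose product is a fusion that holds a small subunit protein, gave -0.04 ± 0.21.

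Taken by their brightest tested probe, elongation factors and other genes of the TOP class had a median difference below 0. Of 16 tested genes, 6 had a higher and 10 a lower mean, with a median difference of -0.04. Their median on CpG-ODN array 2 relative to saline was -0.06, where the 113 member probes had 0.20. The probe choice was unlike, since this list holds 1 probe a gene and the members' values hold all tested probes. The sign of the list's median holds for that choice only, since other probes of these genes went both ways. Those of PABPC1 and NAP1L1 gave 0.51, and -0.09 and 0.41, where the brightest gave -0.10 for each gene. Those of EEF1A1 and EEF1D were lower, like their brightest probes. With 1 probe a gene the members' median difference was 0.05 in place of 0.08. EEF1A1, which brings aminoacyl-tRNA to the ribosome, gave -0.07 ± 0.16, and EEF2, the translocase, gave 0.07 ± 0.18. HNRNPA1 gave -0.23 ± 0.22, and 0.10 at its other probe. One dim probe of EEF1B2 read 7.29, 6.76 and 7.56 under saline and 9.71, 8.42 and 7.26 with CpG-ODN, with arrays 1 and 2 high and array 3 within the saline range. The other 4 EEF1B2 probes gave differences from -0.07 to 0.14, against 1.26 ± 0.51 for that probe. Whether the members and this list differ was not tested, since genes that share arrays are not independent.

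Of 38 genes of ribosome assembly, 34 were tested, 21 higher and 13 lower by mean, with a median difference of 0.03. GAR1, a protein of the H/ACA particles that guide pseudouridylation of rRNA, read 11.66, 11.61 and 11.59 under saline and 11.997, 12.20 and 11.97 with CpG-ODN. All treated values lay above all saline values, and the difference was 0.43 ± 0.16 (limma, unadjusted p = 0.0228, adjusted p = 1.00). Its other probes gave 0.07 and 0.25. A further list of 12 genes held kinases of RPS6, regulators of TOP mRNAs, the growth regulator MYC and the p53 ligase MDM2, and 11 of them were tested, 1 higher and 10 lower by mean, with a median difference of -0.13. RPS6KA3, which encodes the kinase RSK2, read 7.41, 7.44 and 7.35 under saline and 7.18, 6.35 and 6.87 with CpG-ODN, with all treated values below all saline values. Its difference was -0.60 ± 0.22 (limma, unadjusted p = 0.0229, adjusted p = 1.00), and its other tested probes gave -0.54 and -0.52. At those other probes the groups overlapped. The first of them read 7.47 on CpG-ODN array 1, above its highest saline value of 7.28. RPS6KB1, which encodes the S6 kinase downstream of mTOR, gave -0.27 ± 0.17, MTOR gave -0.12 ± 0.19, and LARP1 was not detected.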

How the data were processed

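Intensities were taken from the non-normalized table, in which the authors deposited linear values with no background subtraction, as the file headers and values show. Each intensity had a deposited detection p-value next to it, per the file headers. The submitters' processing notes name BeadStudio, of unstated version. A second deposited table held intensity values that quantile normalization of the first came within 0.0222 log2 units of, and served as an alternative.

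Intensities were background-corrected and quantile normalized with neqc of limma 3.58.1 in R 4.3.3, with an offset of 16, which draws differences of dim probes towards 0, and with the negative controls estimated from detection p-values. Probes with a detection p-value under 0.05 on at least 3 of 6 arrays were tested (17950 of 48803). Symbols came from the platform annotation (28098 probes with 1 gene, 13 with several, 20692 with none), and 28059 matched RefSeq names of GRCh38.p14. The 2 groups, taken from the sample titles, were compared by lmFit and eBayes over all tested probes with Benjamini-Hochberg adjustment, a procedure tested on simulated data. Precision is limited by the number of arrays, whose chips and positions are not given in the sources used here.

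The text names fixed genes of each role, in each direction the 6 probes with the smallest unadjusted p, the 5 brightest and 5 dimmest, the 5 with the largest and smallest saline SD, and genes whose probes differed in sign. RPS9, RPS13, RPL13, RPL30, RPL37A, RPL22 and RPL26, and the genes named outside the ribosomal proteins, were chosen after their values were seen. The members, lists and tests were chosen with earlier results of these data known. Alternatives covered normalization, background, offset, filter, probes per gene, array weights, the replicate number and arrays left out.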

Additional observations from a re-analysis of the deposited data

How the results depend on the processing

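The count of ribosomal protein probes called at an adjusted p under 0.05 was 0 under the main settings and all 18 alternatives run. At an unadjusted p under 0.05 in limma the main settings gave 1 probe. Median scaling gave 0 member probes, beside 334 of all tested probes. The count was also 0 with 1 probe a gene (70 genes), beside 395 in all. Normalized values as deposited gave 2, as did leaving out background correction, each beside 622 of all tested probes. Without a filter on dim probes, 3 of 120 member probes passed, beside 2051 of all probes. Median scaling over the tested probes gave 3, beside 544 of all tested probes. Array weights gave 7, where 2903 of all tested probes passed. With 1 array left out the counts were 0 to 2, beside 366 to 1646 of all tested probes. The median difference of 0.08 kept its sign throughout: it was 0.18 with median scaling, 0.23 with median scaling over the tested probes, 0.03 to 0.11 with 1 array left out, 0.04 with array weights and 0.02 without both CpG-ODN 1 and CpG-ODN 2. Weighting gave CpG-ODN 3 a weight of 4.71, while CpG-ODN 1 had 0.257 and CpG-ODN 2 had 0.349. The cause of these shifts was not tested. Of 842 values of named probes under the alternatives, 769 kept their sign, 73 changed it and 0 passed the adjusted threshold; of 72 values of the classes, 63 kept their sign and 9 changed it. With the replicate number as a block, 1 member probe had an unadjusted p under 0.05 in limma and 0 were called. Over all tested probes 893 had such a p with the block, against 643 without it. The sample titles carry numbers but name no pairs, and the main fit did not take the numbers as pairs. Same-numbered samples deviated from their group means with correlations of 0.341, 0.0499 and 0.126. These values do not settle whether the samples were paired. With 3 arrays a group the median SE was 0.171 log2 units.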
